A study of Rattus norvegicus with 10 samples.

Results

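Cathepsins are the proteases of the lysosome, the acid compartment in which cells take apart proteins. The 10 genes described here encode cathepsins L, B, D, S, H, Z, C, K and A and the related lysosomal protease legumain. They were taken from a kidney cortex expression table by exact gene symbol, 10 of its 32545 genes, and all 10 were among the 14508 genes with a mean of at least 0.5 FPKM (fragments per kilobase of transcript and per unit of library size) that were compared. The set was drawn around Ctsl, which was selected on its FPKM in the 2 diet groups, already seen to lie apart, and the other 9 joined it as its relatives. The contrast between the groups is therefore no test of Ctsl, and its values are given as a description.

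The rats were of the Dahl salt-sensitive inbred strain (SS/JrHsdMcwi), labelled wildtype, whose blood pressure rises on a salty diet. Both groups were implanted with telemeters at 8 to 9 weeks of age, ate 0.4% NaCl during 4 days of recording and then 4% NaCl for 3 weeks. In one group (5 libraries) the high-salt food also held 2% oxonic acid, an inhibitor of uricase, the enzyme that breaks down uric acid in rodents, and in the other (5 libraries, called vehicle) it did not. High salt was common to both, so no library shows these genes on the low-salt diet. The study used males and females, the labels give no sex per library, and they do not tie each library to its own animal, so p-values measure the spread between these libraries, part of which may be technical.

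In the kidney, filtered proteins are taken up by the proximal tubule and digested in its lysosomes, and macrophages and podocytes carry cathepsins as well. Most cathepsins, L, B, S, H, Z, C and K among them, are cysteine proteases of the papain family. Cathepsin D is an aspartic protease, cathepsin A a serine carboxypeptidase and legumain a cysteine protease that cuts after asparagine. They are made as inactive precursors, sorted to lysosomes largely by mannose 6-phosphate receptors, held in check by cystatins, and many lysosomal genes carry the E-box CACGTG to which the transcription factor TFEB and its relatives bind.

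The stretch in front of the start of 4 of these genes is shown because these promoters differ in the E-box. A link between promoter motifs and the group differences was not tested. The sequences are from RefSeq (build GRCr8), read 5′ to 3′ over the 250 bases before the start. Capitals mark the E-box CACGTG, the GC box GGGCGG and the box CCAAT, each on either strand. The windows are chr17:769854-770103 (plus strand) for Ctsl, chr6:127347329-127347578 (minus strand) for Lgmn, chr1:206968822-206969071 (minus strand) for Ctsd and chr2:185747298-185747547 (plus strand) for Ctsk.
Ctsl: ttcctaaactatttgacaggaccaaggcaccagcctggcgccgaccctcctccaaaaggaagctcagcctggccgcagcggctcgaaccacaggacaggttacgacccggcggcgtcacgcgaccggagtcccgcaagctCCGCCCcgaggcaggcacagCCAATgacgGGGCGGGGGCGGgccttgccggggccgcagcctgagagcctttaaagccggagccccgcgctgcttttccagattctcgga
Lgmn: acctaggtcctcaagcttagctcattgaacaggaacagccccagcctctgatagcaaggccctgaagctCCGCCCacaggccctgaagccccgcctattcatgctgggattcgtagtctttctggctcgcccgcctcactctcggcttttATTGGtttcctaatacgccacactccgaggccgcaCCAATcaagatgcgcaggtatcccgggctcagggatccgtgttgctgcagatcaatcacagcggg
Ctsd: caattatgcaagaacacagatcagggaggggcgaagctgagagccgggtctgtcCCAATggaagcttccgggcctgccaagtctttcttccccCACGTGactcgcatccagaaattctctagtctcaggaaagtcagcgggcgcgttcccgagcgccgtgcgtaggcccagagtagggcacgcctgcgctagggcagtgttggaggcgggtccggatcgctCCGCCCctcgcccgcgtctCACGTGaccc
Ctsk: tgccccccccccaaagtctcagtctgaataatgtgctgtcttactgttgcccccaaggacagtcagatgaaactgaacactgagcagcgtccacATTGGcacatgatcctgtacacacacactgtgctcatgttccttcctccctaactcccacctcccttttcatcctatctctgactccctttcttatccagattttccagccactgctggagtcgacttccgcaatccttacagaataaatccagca
Of the 10 genes, 9 were matched in the promoter table, and motifs were counted over windows of 250 bases before to 50 after the start. Ctsd was the 1 gene of 9 with CACGTG, which it held at 2 places, 157 and 10 bases before the start. The motif was present in 6.42% of 33469 promoters. The longer form TCACGTGA, which overlaps CACGTG, was found in Ctsd alone of the 9 and in 0.777% of all promoters. GGGCGG was present in 7 of 9 (33.1% of all promoters) and CCAAT in 6 of 9 (37.5%). In Ctsl, 1 GGGCGG match precedes and 2 follow a CCAAT box, while Ctsk, whose window is poorer in G and C (48.3% over the counted window, against 66.7% in Ctsl), held no GGGCGG. These are matches of letters, not measured binding.

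The libraries held 14.5 to 18.5 M reads in genes, recovered from FPKM and gene length. Cortex markers were present in every library, with 1441 to 2021 FPKM of the proximal phosphate carrier Slc34a1 and 7.15 to 11.3 FPKM of the podocyte gene Nphs1. Some libraries stood apart. Transcripts of the mitochondrial genome took 9.23% of reads in vehicle library 4 and 11.3% to 13.5% in the other 9. The proximal straight segment carrier Slc7a13 measured 245 FPKM in vehicle library 5 and 733 to 1627 FPKM in the others. The inner medulla urea transporter Slc14a2 measured 16.0 FPKM in oxonic acid library 3 and 0.505 FPKM or less in the others. Aqp4, listed with it as a marker, was at 4.36, 1.59, 4.67, 2.81 and 0.878 FPKM in oxonic acid libraries 1 to 5. In the vehicle libraries Aqp4 was at 0.948 to 1.26 FPKM. The numbers in the sample descriptions form 3 runs, here called A, B and C, which the labels do not explain: run A holds oxonic acid libraries 1 to 3, run B oxonic acid library 4 and vehicle libraries 1 to 3, and run C oxonic acid library 5 and vehicle libraries 4 and 5.

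Ctsl, which encodes the endopeptidase cathepsin L, was the most abundant of the 10 transcripts per length. It lies on chromosome 17, 1872848 to 1879279 (ENSRNOG00000018566), by coordinates that the table gives without naming a genome build. By those coordinates Ctsl is on the minus strand, whereas its promoter window above is on the plus strand of build GRCr8, a difference left unresolved. Among genes outside the mitochondrial genome its FPKM ranked 13 to 26 in the libraries. Ctsl measured 1390.2, 1286, 1350.2, 1340.4 and 1437 FPKM in oxonic acid libraries 1 to 5, and 1632, 1868, 1663, 1617 and 1668 FPKM in vehicle libraries 1 to 5. The highest oxonic acid library was below the lowest vehicle library, and vehicle library 2 stood above the other 4 of its group. Group means were 1361 ± 56.7 FPKM (oxonic acid) and 1689.5 ± 101.9 FPKM (vehicle; SD, n = 5 each), a ratio of 0.805 and a difference of -0.31 on the log2(FPKM + 0.5) scale (SE 0.06). Of the 14508 genes tested, 0.965% had all 5 oxonic acid libraries below all 5 vehicle libraries, and Ctsl was chosen for being one of them. Each Ctsl value rests on 30681 to 58243 reads. Counting alone would give a spread of 0.494%, whereas the libraries of a group spread by 4.17% (oxonic acid) and 6.03% (vehicle). Within run B the oxonic acid library differed from the mean of the 3 vehicle libraries by -0.36 on the log2 scale, and within run C, 1 library against 2, by -0.19.

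The table gives a papain family domain label to 24 genes, 7 of them among the 10 described here. Of the other 17, 13 lie on chromosome 17 with Ctsl. Of those 13, 11 were listed at 0 in every library, and the highest value of any was 0.136 FPKM. The other 4 lie elsewhere and were expressed, with means over the 10 libraries of 100.3 FPKM for Tinag, 26.0 FPKM for Ctsf, 14.0 FPKM for Tinagl1 and 2.66 FPKM for Ctsw. How reads matching several copies were counted was not stated in any source at hand.

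**Figure D1:**
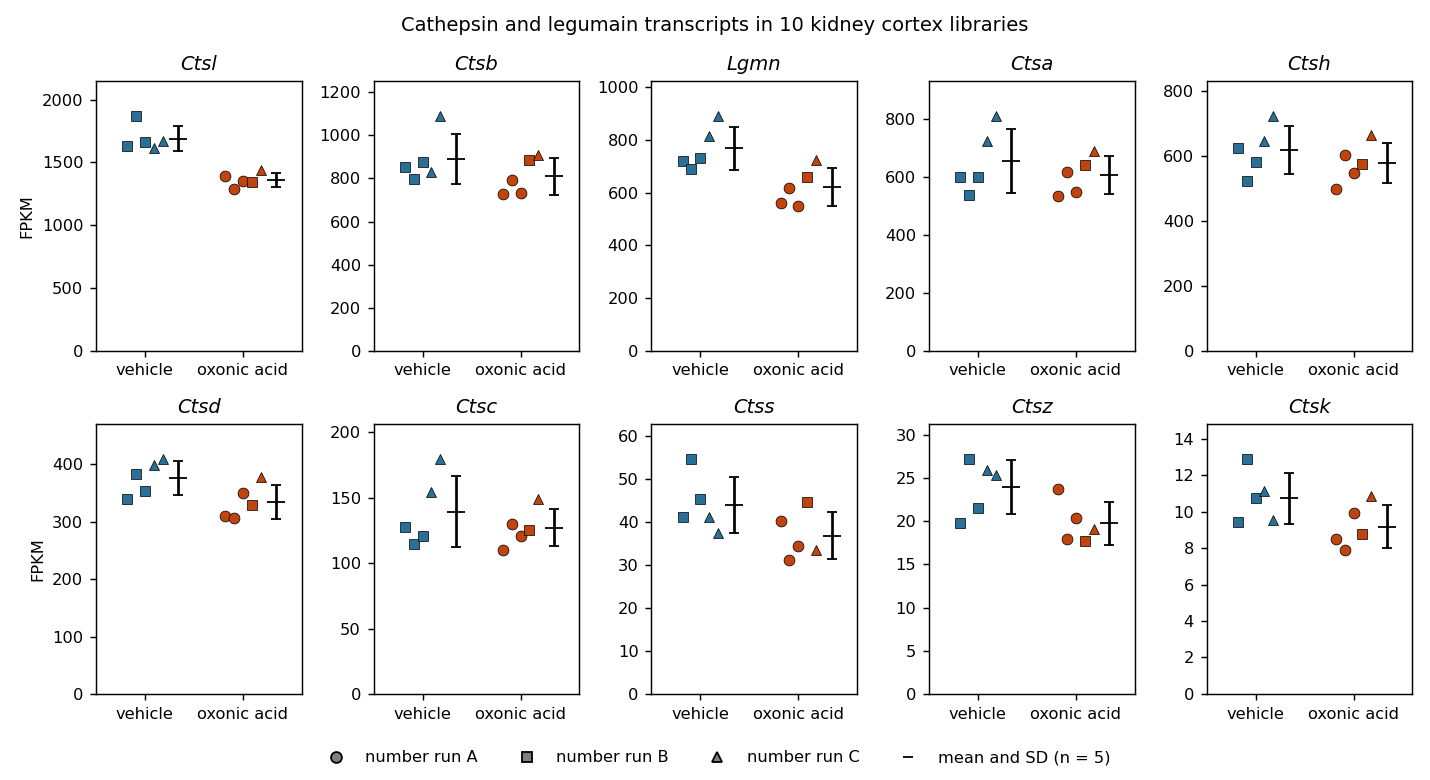
FPKM of the 10 genes (vertical axes, each from 0) in the 5 vehicle (blue) and 5 oxonic acid (orange) libraries; the symbol gives the run of sample numbers, and the bar beside each group its mean and SD. Ctsl is the 1 gene whose groups do not overlap, and in Ctsa, Ctsh and Ctsc the 3 triangles of run C lie above the other 7 libraries.

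Mean FPKM was lower with oxonic acid in all 10 genes, against 49.1% of all genes tested. Since the set was assembled with this contrast known, the count describes it and supports nothing further. In limma's test across all genes, 0 of the 9 genes other than Ctsl passed at an adjusted p under 0.05 (0.0% of all genes did), and their adjusted p ran from 0.389 to 0.791. At an unadjusted p under 0.05, where 9.49% of all genes lay (5.17% with lower values), were 3 of the 9, namely Lgmn, Ctsz and Ctsd. The median log2 difference over the 10 genes was -0.19, beside 0.01 over all genes tested. In tissue RNA, fewer cells of a type and less RNA per cell cannot be told apart. The count of 10 lower genes was 10 with each library left out in turn, 7 of 10 with vehicle libraries 4 and 5 left out together, 8 of 10 with the runs as a block, 6 of 10 within run B and 9 of 10 within run C. The sizes depended on single libraries: without vehicle library 5 the log2 difference was -0.02 for Ctsc, -0.02 for Ctsa, -0.04 for Ctsh and -0.06 for Ctsb, and without vehicle library 2 it was -0.18, -0.17 and -0.16 for the first 3. For these 3 it was also nearer to 0 without oxonic acid library 1, at -0.07, -0.06 and -0.05. Ctsa and Ctsc were at -0.06 and -0.08 without vehicle library 4. Ctsa was at -0.07 without oxonic acid library 3, and Ctsh at -0.15 without oxonic acid library 5.

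**Figure D2:**
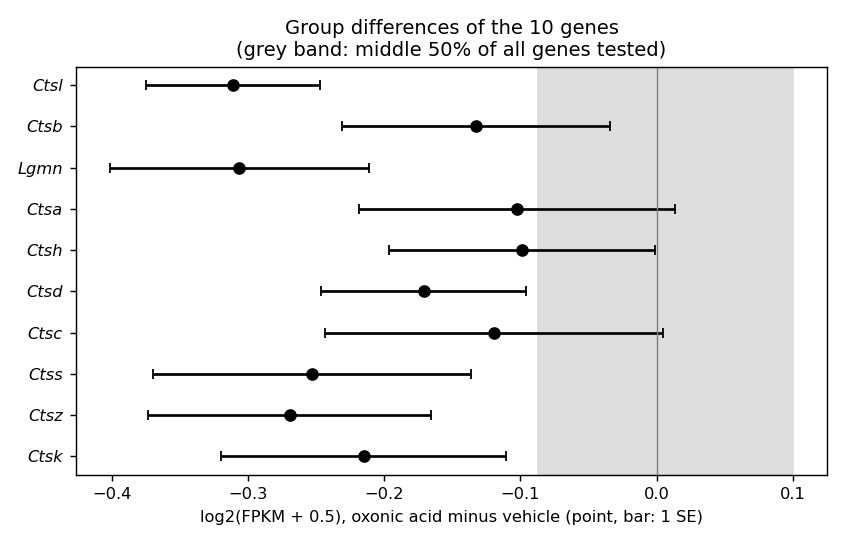
Difference between the group means on the log2(FPKM + 0.5) scale for each of the 10 genes, oxonic acid minus vehicle (n = 5 each), with bars of 1 SE; the grey band spans the middle 50% of all 14508 genes, -0.09 to 0.10. All 10 points lie below 0, with Ctsl at -0.31, Lgmn at -0.31 and Ctsh nearest to 0 at -0.10.

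Legumain takes part in the maturation of several cathepsins, cutting them at asparagine. Lgmn (chromosome 6, 126282233 to 126320726) measured 562, 616, 550.0, 659 and 725 FPKM in oxonic acid libraries 1 to 5, and 719, 691, 732, 813 and 891 FPKM in vehicle libraries 1 to 5. Oxonic acid library 5, of run C, overlapped the vehicle group, and the other 4 lay below it. The means were 622 ± 72.3 and 769 ± 81.7 FPKM (SD, n = 5 each), which on the log2 scale differ by -0.31 (SE 0.09; adjusted p by limma 0.389, not past the threshold). The difference was -0.12 within run B and -0.23 within run C.

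Cathepsin B cuts within proteins and also trims pairs of residues from their ends. Ctsb measured 726, 793, 734, 886 and 907 FPKM with oxonic acid and 855, 797, 875, 828 and 1089 FPKM with vehicle, in library order. The groups overlapped, the high vehicle value being that of library 5. The means of 809 ± 84.3 and 889 ± 116 FPKM (SD, n = 5 each) differed by -0.13 on the log2 scale (SE 0.10; adjusted p by limma 0.671). Within run B the sign was the other way, at 0.07.

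Cathepsin D, the aspartic protease of the group, measured 310.3, 306.7, 351, 329 and 377 FPKM (Ctsd, oxonic acid libraries 1 to 5) and 340.1, 384, 353, 399 and 409 FPKM (vehicle libraries 1 to 5). The groups overlapped. Ctsd had the smallest spread over all 10 libraries, 9.996%. Its means were 335 ± 29.5 and 377 ± 29.5 FPKM (SD, n = 5 each), differing by -0.17 on the log2 scale (SE 0.08; adjusted p by limma 0.516), and by -0.12 and -0.10 within runs B and C.

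The next genes encode exopeptidases, which remove residues from the ends of proteins. Ctsh, the aminopeptidase cathepsin H, measured 498, 604, 548, 575 and 665 FPKM in oxonic acid libraries 1 to 5 and 623, 524, 583, 647 and 723 FPKM in vehicle libraries 1 to 5. Ctsc, the dipeptidyl peptidase that activates serine proteases of immune cell granules, measured 110.3, 129.6, 121, 126 and 149 FPKM with oxonic acid and 127, 114, 121, 155 and 179 FPKM with vehicle. Ctsa, the carboxypeptidase that also shields beta-galactosidase and neuraminidase in the lysosome, measured 535, 617, 548, 643 and 692 FPKM with oxonic acid and 602, 539.7, 599.6, 726 and 811 FPKM with vehicle. In each of these 3 genes the groups overlapped widely and the highest libraries were those of run C, oxonic acid library 5 and vehicle libraries 4 and 5. The log2 differences were -0.10 for Ctsh (SE 0.10), -0.12 for Ctsc (SE 0.12) and -0.10 for Ctsa (SE 0.12), with limma adjusted p of 0.756, 0.771 and 0.791. Without vehicle libraries 4 and 5 their differences were 0.00074, 0.07 and 0.06. Ctsa overlaps Pltp and Neurl2, on the opposite strand, at 14.9 to 19.9 and 13.4 to 22.1 FPKM, and whether counting used the strand was not stated, so its values are uncertain to that extent.

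Ctsz, a carboxypeptidase of the papain family, was measured at a far lower level. It stood at 23.8, 17.9, 20.4, 17.7 and 19.1 FPKM with oxonic acid and 19.8, 27.2, 21.6, 25.9 and 25.4 FPKM with vehicle. The groups overlapped: oxonic acid libraries 1 and 3 lay above the lowest vehicle library, and vehicle libraries 1 and 3 below the highest oxonic acid library. Its means, 19.8 ± 2.48 and 24.0 ± 3.13 FPKM (SD, n = 5 each), differed by -0.27 on the log2 scale (SE 0.10; adjusted p by limma 0.470), with -0.35 and -0.41 within runs B and C.

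Cathepsin S, known for trimming the invariant chain of MHC class II (Cd74) in antigen-presenting cells, measured 40.3, 31.2, 34.4, 44.7 and 33.6 FPKM (Ctss, oxonic acid libraries 1 to 5) and 41.3, 54.6, 45.4, 41.3 and 37.4 FPKM (vehicle libraries 1 to 5). The groups overlapped, and vehicle library 2 was the highest of the 10. The Ctss means, 36.8 ± 5.51 and 44.0 ± 6.59 FPKM, differed by -0.25 on the log2 scale (SE 0.12; adjusted p by limma 0.525), which was -0.06 within run B and -0.22 within run C. Cathepsin K, a collagen-degrading enzyme best known from osteoclasts, measured 8.49, 7.88, 9.94, 8.77 and 10.9 FPKM (Ctsk, oxonic acid) and 9.43, 12.9, 10.8, 11.1 and 9.54 FPKM (vehicle). Ctsk too overlapped between groups and was highest in vehicle library 2. Its means, 9.19 ± 1.20 and 10.7 ± 1.40 FPKM, differed by -0.22 on the log2 scale (SE 0.10; adjusted p by limma 0.541), and the difference was -0.30 within run B and 0.07 within run C. The Ctsk values rest on 162 to 346 reads, for which counting alone gives a spread of 6.58%, beside 13.03% among the oxonic acid libraries.

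By level per length, the order over the 10 libraries was Ctsl, Ctsb, Lgmn, Ctsa, Ctsh, Ctsd, Ctsc, Ctss, Ctsz and Ctsk. The mean FPKM of Ctsl was 1.80 times that of Ctsb, and Ctsb exceeded Lgmn in 10 of 10 libraries. Lgmn exceeded Ctsa in 9 of 10 libraries, the exception being oxonic acid library 2, and Ctsa exceeded Ctsh in 9 of 10, the exception being vehicle library 1. The mean levels of these 3 genes differed by ratios of 1.10 and 1.05, less than their spread over libraries. Ctsd, Ctsc, Ctss, Ctsz and Ctsk each stood below their upper neighbour in 10 of 10 libraries, the widest step being 3.29 times, between Ctsc and Ctss. All 10 genes took 0.764% to 0.934% of the reads in genes in oxonic acid libraries and 0.920% to 1.11% in vehicle libraries, which overlap.

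Ratios within a library do not depend on how libraries are scaled. The ratio of Ctsl to the geometric mean of the other 9 was 8.45 to 9.52 with oxonic acid and 8.62 to 10.9 with vehicle, and these ranges overlapped. Against Lgmn alone the Ctsl ratio was 2.21 ± 0.239 and 2.22 ± 0.322 (SD, n = 5 each), and against Ctsb it was 1.69 ± 0.174 and 1.93 ± 0.288. The groups overlapped for the ratio of Ctsl to each of the other 9 genes.

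How the members varied among themselves was examined with the group means removed, which leaves out the contrast that chose Ctsl. Over 45 pairs of genes and 10 libraries, 8 pairs passed at an adjusted p under 0.05 (exact permutation of libraries within groups, 14400 arrangements, two-sided, Benjamini-Hochberg over 45), all 8 with positive r. They join 5 genes, Ctsa, Ctsc, Ctsh, Lgmn and Ctsb. The share of pairs of other genes that would pass was not computed, so the count is not shown to be particular to these genes. The closest pair was Ctsc with Ctsa, with r = 0.97 and rho = 0.95 (n = 10 libraries, exact permutation p = 2.1e-04 and 2.8e-04, adjusted p = 0.00417 and 0.00625). Pearson's r of the 8 pairs ran from 0.83 to 0.97, and by Spearman's rho 5 of the pairs passed. With the 2 libraries farthest from the median left out, r ran from 0.58 to 0.94. With the means of the runs removed as well, r of the 8 pairs was 0.75 to 0.93, on 6 residual degrees of freedom and without a test. Other pairs lay as far from 0 there, Ctss with Ctsz at 0.97 and Ctss with Ctsh at -0.93, so these values do not set the 8 pairs apart.

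None of the 8 pairs held Ctsl. In the same values its r ran from -0.38 with Ctsh to 0.75 with Ctsk, and 0 of its 9 relations passed when adjusted over those 9 (exact permutation within groups). For Ctsk, r = 0.75 and rho = 0.67 (n = 10 libraries, exact permutation p = 0.0209 and 0.0527, adjusted p = 0.188 and 0.474), and r dropped to 0.22 without the 2 libraries farthest from the Ctsl median, so it rests on those. Vehicle library 2 weighs on the signs: without it the r of Ctsl was 0.33 with Ctsb, 0.31 with Lgmn, 0.17 with Ctsc, 0.15 with Ctsa and 0.13 with Ctsh, all 5 of which were negative with it. The lowest of the 45 was Ctss with Ctsh, with r = -0.74 and rho = -0.82 (n = 10 libraries, exact permutation p = 0.0272 and 0.00875, adjusted p = 0.102 and 0.0504), which did not pass.

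**Figure D3:**
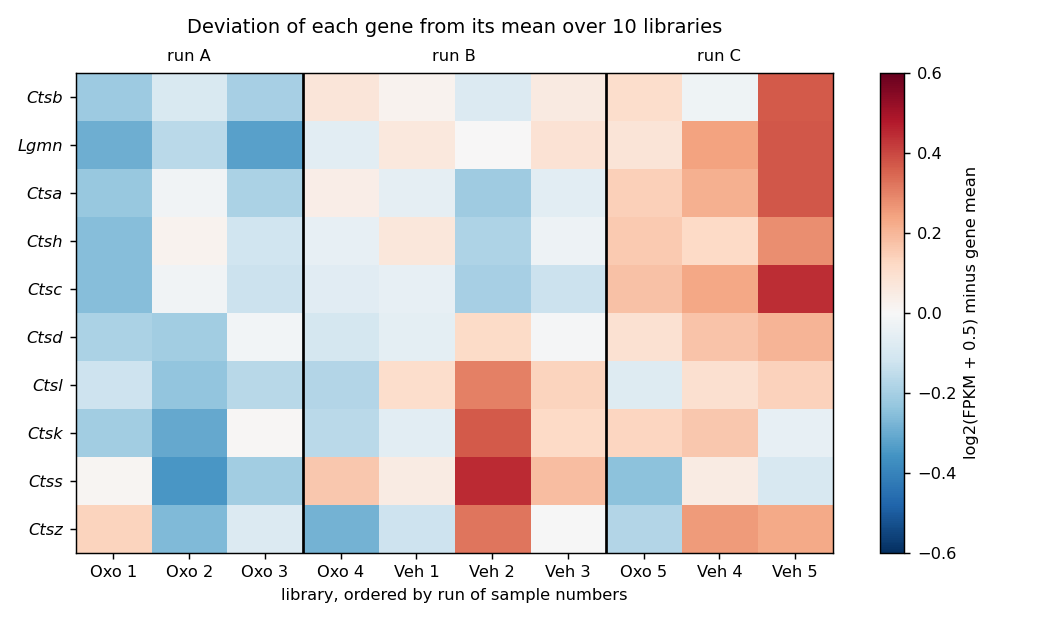
Each cell is the log2(FPKM + 0.5) of a gene (rows) in a library (columns, ordered by run of sample numbers and split by black lines) minus the mean of the gene over the 10 libraries. Ctsb, Lgmn, Ctsa, Ctsh, Ctsc and Ctsd have their highest cell in vehicle library 5, whereas Ctsl, Ctsk, Ctss and Ctsz have theirs in vehicle library 2.

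The run of sample numbers went with part of the group. In Ctsa, Ctsh and Ctsc the 3 libraries of run C lay above the other 7, a pattern seen in 3.52% of all genes tested and noticed after the values were seen. Ctsa, for example, was at 692 to 811 FPKM in run C and at 535 to 643 FPKM elsewhere. Run C holds 2 vehicle libraries and 1 oxonic acid library, and run A oxonic acid libraries only, so the run and the diet are partly confounded. With the runs as a block in limma, the log2 difference of Ctsl was -0.28, that of Lgmn -0.17 and that of Ctsz -0.38, while Ctsb and Ctsa stood at 0.0082.

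Among 8436 genes with a mean of at least 5 FPKM, those most like Ctsl over the 10 libraries, with group means removed, were Cd37 (r = 0.95), Casp1 (0.92), Tubb5 (0.89), Gnai2 (0.87), Atp5sl (0.85) and Tmem176b (0.84). Genes with a provisional symbol, such as those starting with LOC or RGD, were left out of this choice. Cd37 is a tetraspanin of leukocytes and Casp1 the protease that activates interleukin 1. The nearest of the other 9 members was Ctsk, 27th of the 8436 by r, followed by Ctss at rank 254. All 6 had their highest vehicle value in library 2, as Ctsl did, so their likeness leans on that library. Cd37, for example, was at 16.3 FPKM there and at 9.19 to 11.2 FPKM in the other 4 vehicle libraries, and Tmem176b at 88.5 FPKM and 68.5 to 76.1 FPKM. All these values come from the same 10 libraries and share their scaling.

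Other genes of the lysosome were looked at by list, and 0 genes of any list passed limma's test (0.0% of all genes). Of 16 further cathepsins and lysosomal peptidases in the table, 7 were below the filter and 9 were tested. Of these 9, 9 had a log2 difference below 0, beside 48.2% of all genes, with a median of -0.10. The most abundant was the aspartic protease gene Napsa, at 384 ± 34.7 FPKM (oxonic acid) and 397 ± 33.7 FPKM (vehicle, SD, n = 5 each). The carboxypeptidase Scpep1 measured 187 ± 15.3 and 201 ± 16.1 FPKM, and the dipeptidyl peptidase Dpp7 143 ± 18.2 and 171 ± 25.01 FPKM in the same order. In 4 of these 9 genes, Napsa and Dpp7 among them, the run C libraries lay above the rest, beside 3.52% of all genes. The pattern held in 1 of 6 cathepsin inhibitors, 1 of 13 sorting genes and 5 of 21 vacuolar ATPase subunits, all listed below. It also held in 2 of 15 regulators, 1 of 15 membrane proteins and 4 of 35 other hydrolases.

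Of 10 matched genes of a list of cathepsin inhibitors, 6 passed the filter and were tested. The list holds the serpins Serpinb1a and Serpinb6 beside cystatins. All 6 tested genes had a log2 difference below 0, beside 48.2% of all genes, with a median of -0.17. Cst3, the secreted cystatin C, measured 606, 554, 599, 592 and 648 FPKM with oxonic acid and 658, 661, 656, 724 and 674 FPKM with vehicle. Its groups did not overlap (0.965% of all genes had all oxonic acid libraries lower), and the limma adjusted p was 0.401 at a log2 difference of -0.17 (SE 0.06). Cstb, the cystatin of the cell interior, measured 139 ± 8.80 and 149.998 ± 13.3 FPKM, and the serpin Serpinb1a 33.7 ± 3.10 and 40.2 ± 4.99 FPKM (SD, n = 5 each).

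The lists for sorting, acidification and regulation lay near the rest of the genes. Of 13 genes of mannose 6-phosphate sorting and retrieval, 7 were lower, with a median of -0.01. Igf2r, the large mannose 6-phosphate receptor, measured 51.8 ± 7.64 and 53.1 ± 9.48 FPKM. The sorting receptor Sort1 was the 1 gene of that list whose groups did not overlap, at 14.8 to 23.1 FPKM (oxonic acid) against 12.4 to 14.6 FPKM (vehicle; limma adjusted p = 0.370). All 5 oxonic acid libraries lay above all vehicle libraries in 0.944% of all genes. Of 21 subunits of the vacuolar ATPase, the pump that acidifies the lysosome, 9 were lower (median 0.01). The pump subunit Atp6v0c measured 576 ± 23.9 and 626 ± 77.1 FPKM.

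Of 15 regulators of lysosomal genes and of nutrient sensing at the lysosome, 5 were lower (median 0.05). Lamtor1, which anchors that machinery, measured 79.3 to 85.0 FPKM with oxonic acid and 85.1 to 88.9 FPKM with vehicle, and Rptor, a partner of the kinase mTOR, 7.19 to 8.28 and 5.88 to 7.03 FPKM. Lamtor1 was lower and Rptor higher without overlap (0.965% and 0.944% of all genes), the highest oxonic acid library of Lamtor1 at 84.98 FPKM and its lowest vehicle library at 85.13 FPKM, and neither passed (limma adjusted p = 0.503 and 0.507). Of 15 lysosomal membrane proteins, 9 were lower (median -0.03). Lamp1 measured 611 ± 52.9 and 627 ± 54.3 FPKM, Cd63 736 ± 23.9 and 814 ± 61.4 FPKM, and the cholesterol exporter Npc1, which shares its locus with other annotated genes, was higher without overlap, at 3.21 to 3.90 and 2.56 to 3.10 FPKM (limma adjusted p = 0.408). Of 35 other hydrolases, 24 were lower (median -0.03), with the sphingolipid activator Psap at 392 ± 8.39 and 394 ± 23.7 FPKM.

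**Figure D4:**
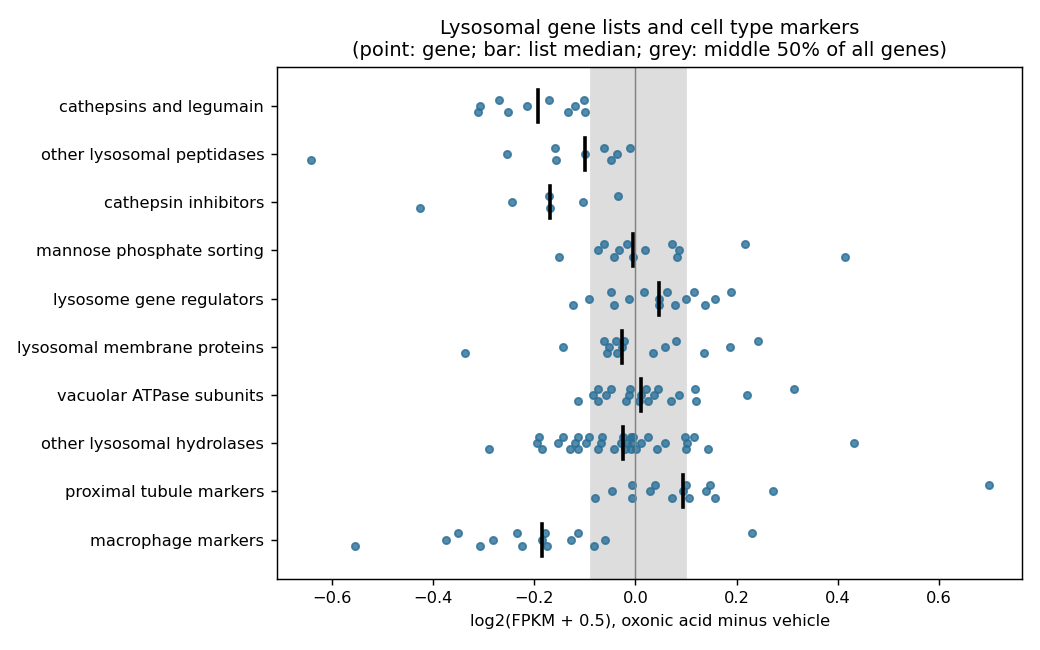
Log2(FPKM + 0.5) difference between oxonic acid and vehicle for each tested gene (points) of the 10 genes described here, 7 further lysosomal lists and 2 cell type lists, with the list median as a black bar and the middle 50% of all genes in grey. The medians of the cathepsins (-0.19), the other peptidases (-0.10), the inhibitors (-0.17) and the macrophage markers (-0.18) lie left of the grey band, and those of sorting, regulators, membrane proteins, pump and other hydrolases within it.

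Cell type markers were summed in each library. Of 15 macrophage and monocyte markers tested, 14 had a log2 difference below 0 (median -0.18), and 0 passed limma's test; groups did not overlap in 2 of the 15, Mrc1 and Tyrobp, both lower (0.965% of all genes). Their summed level was 1073 to 1186 FPKM with oxonic acid (median 1151) and 1179 to 1379 FPKM with vehicle (median 1305), with some overlap, most of it from Cd74 and Lyz2. The defining genes Cd68, Csf1r and Adgre1 measured 7.21 to 11.7, 16.6 to 25.3 and 5.99 to 10.4 FPKM over the 10 libraries, Marco was at 0 in every library and Cd163 at 0.129 FPKM or less. Vehicle library 2, with the highest Ctsl, Ctss, Ctsz and Ctsk, also had the highest summed macrophage level, 1379 FPKM, next to 1377 FPKM in vehicle library 5. The part of macrophages in the cathepsin differences was not tested.

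Of 15 proximal tubule markers tested, 0 passed limma's test and 4 had a log2 difference below 0 (median 0.09). Their summed level overlapped between the groups, at 7742 to 8828 FPKM with oxonic acid (median 8206) and 6350.2 to 8137 FPKM with vehicle (median 7535). The endocytic receptor Lrp2, which brings filtered protein to these lysosomes, measured 212 to 293 FPKM over the 10 libraries, and its partner Cubn 40.5 to 77.2 FPKM. The lowest summed proximal level, 6350.2 FPKM, was in vehicle library 2, the library with the highest Ctsl. Fibroblast and pericyte markers were lower in 8 of 10 genes (median -0.28), with the matrix gene Dcn at 105 ± 12.96 and 135 ± 20.4 FPKM (SD, n = 5 each). Podocyte markers were lower in 2 of 9 (median 0.19), distal nephron markers in 0 of 9 (median 0.42), inner medulla and thin limb markers in 2 of 7 (median 0.43), and lymphocyte and neutrophil markers in 6 of 6 that passed the filter of 15 (median -0.28). The part of these cell types in the cathepsin values was not tested.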

How the data were processed

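RNA of kidney cortex was sequenced in 10 libraries (Trizol extraction and poly-T selection, per the labels' protocols, which cover directional and non-directional libraries alike). The tools named in the submitters' processing notes are featureCounts 1.5.0-p3, StringTie 1.3.3b, HISAT2 2.0.5 and fastp, and no genome build is named there. The authors deposited FPKM per gene and library. FPKM times gene length was a whole number of steps per library (100.0% were whole to within 0.01), from which reads were recovered. FPKM were kept as the authors scaled them; the authors' library size was 0.977 to 1.04 times the reads summed in genes. Table columns were matched by the sample descriptions. No libraries agreed within sampling noise (lowest chi-square per degree of freedom 5.00).

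Genes with a mean of at least 0.5 FPKM were tested on log2(FPKM + 0.5) with limma 3.58.1 in R 4.3.3 (mean-variance trend, two-sided, Benjamini-Hochberg over 14508 genes, threshold 0.05). The procedure was checked on simulated data without runs, with planted changes larger than those of the 10 genes. That check does not cover differences of their size. The pseudocount understates changes of low genes. In limma's test of the 10 libraries 0 genes passed and 1377 had an unadjusted p under 0.05. With limma's voom on the recovered reads 0 genes passed as well, with 1528 at an unadjusted p under 0.05. Permutations and figures used Python 3.11.15, scipy 1.17.1 and matplotlib 3.10.9. Where a symbol repeated, the row with the highest mean was used. Named genes are the 10 members, the 3 highest genes of each list and those whose groups did not overlap, of which not all are printed, and the 6 genes most like Ctsl; a few defining markers are named besides. The members and lists were chosen with earlier results of these data known. Promoter sequences are from RefSeq (GRCr8), matched by symbol. 1 named gene is not reported here.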

Additional observations from a re-analysis of the deposited data

Results flagged for a closer look

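Of 124 groups of 5 libraries looked at (62 named genes in each diet group), 12 held a library whose gap to the nearest other was over 0.71 of the range of the group; chance gives about 1 in 20 groups. Among the cathepsins, Ctsl in vehicle library 2, at 1868 FPKM, stood above the other vehicle libraries (1617 to 1668 FPKM), and Ctsb in vehicle library 5, at 1089 FPKM, above the others of its group (797 to 875 FPKM). Without vehicle library 2 the log2 difference of Ctsl was -0.27, and without vehicle library 5 that of Ctsb was -0.06.

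Vehicle libraries 4 and 5 held 8 of the 12. In vehicle library 4 the value was 724 FPKM for the cystatin Cst3, 5.88 FPKM for Rptor, 116 FPKM for S100a6 and 35.7 FPKM for Akr1b1. In vehicle library 5 it was 69.7 FPKM for Igf2r, against 45.5 to 50.4 FPKM in the other vehicle libraries, 60.5 FPKM for the salt cotransporter Slc12a1 and 35.4 FPKM for the crystallin Cryab, the last 2 being the lowest of their group. Cd37 measured 16.3 FPKM in vehicle library 2. In the oxonic acid group, Rptor measured 8.28 FPKM in library 4, and Akr1b1 measured 93.7 FPKM in library 3, beside 14.8 to 19.1 FPKM in the others.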

How the results depend on the processing

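The count of genes called was 0 in all settings but 2: with array weights it was 1 (Tap2), and leaving out 1 library in turn gave 0 to 1, the call being SNORA3 without vehicle library 1. The count of lower members was 10 in each run that left out 1 library, and 6 within run B of the sample numbers. The log2 difference of Ctsl was -0.36 to -0.19 over all settings other than leaving out 1 library, its value within run C (-0.19) being farther from -0.31 than the spread between libraries, and -0.33 to -0.27 with 1 library left out. Signs turned as follows. With the runs as a block, Ctsb and Ctsa were at 0.0082 (Ctsb) and 0.0082 (Ctsa). Within run B, Ctsb was at 0.075, Ctsh at 0.00033, Ctsc at 0.057 and Ctsa at 0.15. Within run C, Ctsk was at 0.073. With vehicle libraries 4 and 5 left out, an alternative chosen after seeing the data, Ctsh was at 0.00074, Ctsc at 0.066 and Ctsa at 0.059. The cause was not tested; runs B and C each hold 1 oxonic acid library. Without vehicle library 2 the group-centred r of Ctsl turned positive with 5 genes; with 1 library left out it ran from -0.34 to 0.33 (Ctsb), -0.76 to 0.13 (Ctsh), -0.56 to 0.17 (Ctsc), -0.61 to 0.15 (Ctsa) and -0.50 to 0.31 (Lgmn), and 0 of 9 relations passed in any setting.

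Replicate numbers in the titles are not stated to pair the libraries. Deviations of same-numbered libraries correlated at -0.01 to 0.20, and the same-numbered vehicle library was the closest for number 5 only. Low correlations cannot exclude a pairing. With the replicate block, 0 genes passed (1445 at an unadjusted p under 0.05), the count of lower members was 10, Ctsl stood at -0.31 and Lgmn at an adjusted p of 0.308, and no other call changed. Over all settings, limma's adjusted p of the 9 genes other than Ctsl was 0.285 or more.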
